A study of Mus musculus with 12 samples.

Results

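Sorted microglia of irradiated Balb/c mice were set against those of irradiated C57BL/6 mice, which took 6 of the 12 arrays of the series, 3 for each strain. All 6 mice were females from a commercial breeder that received a single dose of 10 Gy of X-rays over the forebrain at 6.5 weeks of age, per the labels. Hippocampal CD11b+ cells were sorted 1 month later, at 10.5 weeks, and each array held the RNA of 1 mouse. The labels name no transgene or induced mutation in either strain, and by the labels the groups differ in strain alone. The other 6 arrays, 3 per strain, held cells of sham-irradiated mice of the same sex and ages, and served to measure the strain difference without the dose. Members were chosen by strain and treatment, and no measured value entered the choice. The values are log2 intensities after GCRMA, a background correction and normalization for Affymetrix arrays. Each gene was represented by its probe set with the highest mean over the 12 arrays. A gene was tested if that probe set lay above 5 in at least 3 arrays, which held for 9120 of 18193 genes.

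Microglia are the resident macrophages of the brain. They sense microbial products, nucleic acids, purines, complement and antibodies, respond to interferons, and present peptides on MHC molecules, and ionising radiation is known to turn on p53 targets and inflammatory genes in them. Balb/c and C57BL/6 are inbred strains that differ at many loci. They carry different haplotypes of the mouse MHC, called H2, C57BL/6 mice make no H2-Ea, and the C57BL/6J substrain lacks part of Nnt, a mitochondrial enzyme that regenerates NADPH. An array probe is a short fixed sequence, so a base that differs between strains under a probe lowers the signal of one strain. Such a difference and a difference in transcript amount cannot be told apart in these values.

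The strain difference was broad. Of 9120 genes 818 were called at an adjusted p under 0.05 (limma, Benjamini-Hochberg), which is 8.97% of those tested, with 399 higher in Balb/c (4.38%) and 419 lower (4.59%). The median size of a called difference was 1.00 on the log2 scale, against 0.21 over all tested genes, and the median signed difference of all genes was 0.02. With a difference of at least 2-fold, 408 genes were called (4.47%), 172 higher (1.89%) and 236 lower (2.59%), and 31 differed by at least 16-fold. The 3 Balb/c arrays lay wholly on one side of the 3 C57BL/6 arrays for 816 of the 818, against 27.4% of all tested genes. An unadjusted p under 0.05 was found for 2048 genes.

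Genes known to separate the strains did so in the irradiated mice. H2-Ea was higher in Balb/c by 3.72 ± 0.53 (log2 ± SE, adjusted p = 0.00122, limma) and Nnt by 1.58 ± 0.13 (adjusted p = 2.53e-05). A principal component analysis of the 6 irradiated arrays put the strains on opposite ends of its leading axis, which took 50.2% of the variance. The 3' minus 5' difference of the control genes Actb and Gapdh, which grows as RNA products shorten, was 4.25 ± 0.56 (log2 mean ± SD, n = 3) in Balb/c and 3.63 ± 0.12 in C57BL/6 (exact permutation test, two-sided, p = 0.2, where 3 against 3 arrays cannot go below 0.1). Balb/c irradiated replicate 2 stood highest at 4.82. The 18S ribosomal control was 11.19 ± 0.61 against 11.69 ± 0.12 (exact permutation test, p = 0.2). With the 3' minus 5' difference as a covariate 336 genes were called (3.68%), 320 of them among the 818. No called difference changed sign, the median size was 0.966 of that without the covariate, and the median standard error of the called genes went from 0.18 to 0.23. Earlier results of these data had set apart Balb/c irradiated replicate 2 and C57BL/6 irradiated replicate 3, and without these 2 arrays 450 genes were called. The mean correlation of C57BL/6 irradiated replicate 3 with its own group was 0.966, close to 0.968 for replicate 2. Leaving out each of the 12 arrays in turn gave from 576 to 847 calls, and 458 of the 818 genes were called every time. Genes named below were called without each array in turn unless an exception is given.

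The largest differences spanned many doublings and lay in genes of unrelated function. Ccr6, the receptor of the chemokine Ccl20, had log2 values of 11.74, 11.26 and 11.59 in the 3 Balb/c arrays and 3.23, 3.55 and 3.44 in the 3 C57BL/6 arrays. It was bright in every Balb/c mouse and near the bottom of the scale, which was 2.23, in every C57BL/6 mouse, a difference of 8.13 ± 0.17 (log2 ± SE) or 279.7-fold (adjusted p = 1.61e-10, limma). In the opposite direction stood Trim30d, an interferon-induced protein of the tripartite motif family, with 2.23, 2.83 and 2.23 in Balb/c and 10.57, 10.55 and 10.78 in C57BL/6. Every Balb/c array was at or close to the bottom of the scale, and the difference was -8.20 ± 0.18 (adjusted p = 2.48e-10). A gene that 1 strain holds at the bottom has a difference whose size depends on the background correction. This applies to 26 of the 30 genes with the largest differences, 15 in each direction, whose lower strain mean was under 5.

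**Figure D1:**
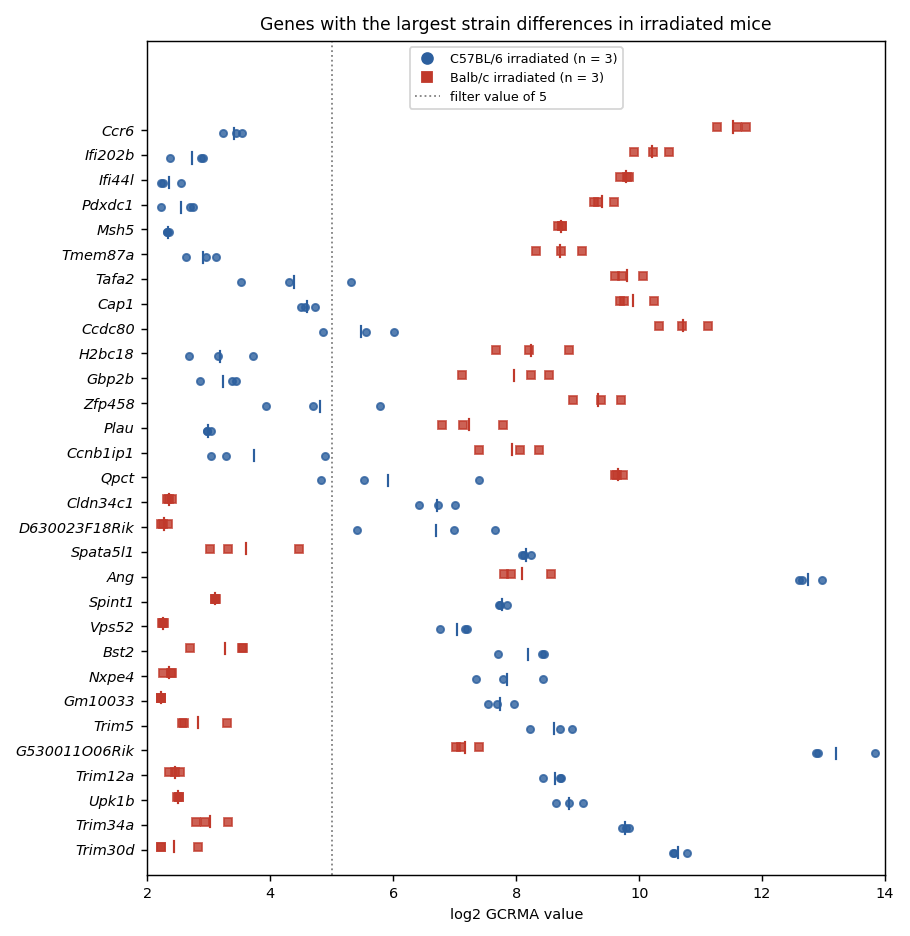
Log2 GCRMA values of the 15 genes most above and the 15 most below in Balb/c, for each of the 3 irradiated mice per strain (points) with the group mean (vertical bar). The 30 were chosen among genes whose strains do not overlap, so their separation was set by the choice. In 26 the lower strain mean lies left of the dotted filter value of 5.

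Among the 15 genes most above in Balb/c were several secreted or surface proteins. Tafa2, a chemokine-like secreted protein, had 10.05, 9.72 and 9.61 in Balb/c and 5.31, 4.30 and 3.53 in C57BL/6, a difference of 5.41 ± 0.35. Ccdc80, a secreted matrix protein, was higher by 5.24 ± 0.26. Plau, the urokinase plasminogen activator, was higher by 4.25 ± 0.38. Qpct, which cyclises glutamine at the N-terminus of peptides such as chemokines, had 9.73, 9.64 and 9.61 in Balb/c against 4.83, 5.52 and 7.39 in C57BL/6. Its C57BL/6 arrays were spread widely, with replicate 3 nearest to Balb/c, and the difference of 3.75 ± 0.50 compares with 6.86 ± 0.50 in sham mice. The difference of the strain differences was not called for Qpct. Intracellular proteins in the same group were Cap1, which recycles actin monomers, at 5.30 ± 0.26, Msh5, a meiotic homologue of mismatch repair proteins, at 6.39 ± 0.13, the histone H2bc18 at 5.06 ± 0.34, and Pdxdc1, Tmem87a, Zfp458 and Ccnb1ip1 at 6.84, 5.81, 4.53 and 4.21. A second probe set of Pdxdc1 went the other way, at -3.28 (adjusted p = 3.02e-04, limma over all kept probe sets), so the direction of this gene is uncertain.

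Among the 15 most below in Balb/c, beside Trim genes, were enzymes, membrane proteins and unnamed transcripts. Ang, the secreted ribonuclease angiogenin, had 7.91, 7.80 and 8.56 in Balb/c and 12.65, 12.98 and 12.60 in C57BL/6. All C57BL/6 arrays were far above all Balb/c arrays, the difference was -4.65 ± 0.23, and both further probe sets were lower as well, at -8.07 and -3.02. Upk1b, a uroplakin of the tetraspanin family, was lower, at -6.36 ± 0.16, and its other 3 probe sets were lower too. Spint1, an inhibitor of serine proteases, was lower, at -4.67 ± 0.16 and Vps52, a subunit of a complex that returns vesicles to the Golgi, at -4.79 ± 0.19. Nxpe4, Spata5l1, Cldn34c1, Gm10033 and G530011O06Rik were lower, at -5.50 ± 0.26, -4.55 ± 0.30, -4.36 ± 0.35, -5.50 ± 0.24 and -6.03 ± 0.39. All 30 genes were called with the 3' minus 5' covariate, and adjusted p ran from 8.81e-11 to 7.94e-04 (limma). In sham mice 29 of the 30 were called in the same direction. The exception was D630023F18Rik, an unnamed transcript at -4.42 ± 0.42. It passed the filter on low values through irradiated C57BL/6 alone and lay at the bottom of the scale in sham mice. It therefore had to differ in irradiated mice, and nothing is read from its exception.

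Trim5, Trim12, Trim30 and Trim34 genes lie side by side on mouse chromosome 7 and encode proteins of the tripartite motif family, several of which restrict viruses. The list made for this locus also took in Trim21 and Trim68, whose map positions were not compared with it. Of 8 tested genes of the list 5 were lower in Balb/c and none higher, where 4.59% of all genes were lower, and the list had a median of -3.43. The start regions of the 5 lower genes are shown because they carry the core of the interferon-stimulated response element, GAAANNGAAA, the site of the factors that answer interferon. Each window runs from 150 bases before the start to 30 after it, on the gene's own strand (RefSeq, GRCm38.p6). Capitals mark the first match of the motif or of its reverse complement.
Trim30d, chr7:104507820-104507999, minus strand: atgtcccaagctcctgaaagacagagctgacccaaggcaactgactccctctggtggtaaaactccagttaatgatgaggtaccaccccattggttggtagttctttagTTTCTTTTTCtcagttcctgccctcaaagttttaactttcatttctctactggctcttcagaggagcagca
Trim30a, chr7:104446096-104446275, minus strand: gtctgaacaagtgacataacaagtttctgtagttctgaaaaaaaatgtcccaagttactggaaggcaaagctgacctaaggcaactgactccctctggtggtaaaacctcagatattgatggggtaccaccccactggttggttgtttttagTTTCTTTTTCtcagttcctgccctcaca
Trim34a, chr7:104244307-104244486, plus strand: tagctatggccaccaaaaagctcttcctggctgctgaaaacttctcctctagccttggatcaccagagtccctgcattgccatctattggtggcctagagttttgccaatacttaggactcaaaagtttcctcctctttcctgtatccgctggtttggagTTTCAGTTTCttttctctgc
Trim12a, chr7:104315466-104315645, minus strand: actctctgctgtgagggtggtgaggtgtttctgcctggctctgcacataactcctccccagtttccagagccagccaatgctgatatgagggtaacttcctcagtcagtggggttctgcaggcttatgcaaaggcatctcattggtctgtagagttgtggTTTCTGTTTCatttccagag
Trim5, chr7:104288077-104288256, minus strand: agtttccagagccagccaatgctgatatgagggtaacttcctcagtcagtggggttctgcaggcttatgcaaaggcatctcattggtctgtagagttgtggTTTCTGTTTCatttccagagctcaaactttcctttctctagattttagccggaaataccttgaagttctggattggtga

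The windows of Trim12a and Trim5 shared an unbroken run of 121 bases and those of Trim30d and Trim30a one of 31, so these are close copies and their probe sets may take up RNA of each other. The letters are those of the reference strain, and the Balb/c sequence was not used. A match of the motif was present in 7 of the 8 tested genes of the list within 300 bases around the start. It was present in 3.79% of all tested genes with such a window and in 3.44% of all 32851 windows. It was found in 28 of 337 genes called lower in Balb/c (8.31%) and 11 of 329 called higher (3.34%), with close copies such as these counted singly. A match is a run of letters and not a measured binding site.

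Trim12a, shown above with its motif just after the start, had values of 2.45, 2.35 and 2.54 in Balb/c and 8.71, 8.73 and 8.43 in C57BL/6. Its Balb/c arrays lay near the bottom of the scale and the difference of -6.18 ± 0.11 had the smallest adjusted p of all genes (8.81e-11, limma). Trim34a, with 2.78, 3.31 and 2.94 against 9.83, 9.78 and 9.72, was lower, at -6.76 ± 0.18, and Trim5, with 2.6, 2.57 and 3.29 against 8.91, 8.22 and 8.72, at -5.80 ± 0.23. None of the Balb/c arrays of these genes exceeded the filter value of 5. Trim30a, which restrains Toll-like receptor signalling, was bright in both strains, with 9.78, 10.11 and 9.47 in Balb/c and 10.77, 10.75 and 11.06 in C57BL/6, and lower, at -1.07 ± 0.19 (adjusted p = 0.00509). Its second probe set gave -0.16 and did not pass. The list members Trim12c and Trim21 had differences of -0.08 and 0.10 and did not pass, and the eighth member, Trim68, stood at 1.22 ± 0.37 (adjusted p = 0.0722, limma). In sham mice the 4 genes near the bottom of the scale differed at -8.29 (Trim30d), -6.56 (Trim34a), -6.38 (Trim12a) and -5.40 (Trim5).

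Among other interferon-induced genes the share called depended on the family. It was 12.9% of the type I interferon response list, 20% of the interferon-induced GTPases and 66.7% of the Ifi200 family, beside 8.97% of all tested genes. Of 31 tested genes of the type I interferon response 1 was higher in Balb/c and 3 were lower, 7 of the 31 differences were positive, and the median was -0.21. Ifi44l, an antiviral interferon-induced protein, had 9.84, 9.69 and 9.81 in Balb/c and 2.55, 2.23 and 2.26 in C57BL/6. It was at or near the bottom of the scale in every C57BL/6 array and the difference was 7.43 ± 0.14 (adjusted p = 1.27e-10, limma), with 5.75 from its second probe set. Bst2, or tetherin, which holds budding virus at the cell surface, had 3.56, 2.70 and 3.54 against 7.71, 8.42 and 8.45 and was lower, at -4.93 ± 0.37. Oasl2, an oligoadenylate synthetase-like protein, was at 3.11 in each Balb/c array and at 5.92, 5.66 and 5.96 in C57BL/6, so it was dim in both strains and lower, at -2.74 ± 0.17. It passed the filter on low values through irradiated C57BL/6 alone, so it had to differ. The fourth, Slfn2, a regulator of immune cell quiescence, was lower, at -0.94 ± 0.25 (adjusted p = 0.0381) and lost its call without any 1 of C57BL/6 irradiated replicates 1, 2 and 3 or Balb/c irradiated replicates 1, 2 and 3 (up to 0.129). The other 27 members did not pass, with differences from -1.05 for Samd9l to 0.36 for Trim25. Among them Ifit1 stood at 0.19, Ifit2 at 0.18, Ifit3 at -0.87, Usp18 at -0.16, Mx1 at -0.18, Rsad2 at -0.05 and Cmpk2 at -0.91. In sham mice 1 member was called higher and 11 lower, with a median of -0.61.

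Interferon-induced GTPases, which attack the vacuoles of intracellular pathogens, had 1 member higher and 1 lower among 10 tested. Gbp2b, a guanylate-binding protein also known as Gbp1, had 8.24, 7.12 and 8.53 in Balb/c and 3.38, 2.86 and 3.45 in C57BL/6, higher by 4.74 ± 0.38 (adjusted p = 1.62e-05, limma). Irgm2 had 10.04, 10.00 and 9.69 against 11.50, 11.77 and 11.41, with both strains bright and no overlap, and was lower, at -1.65 ± 0.14 (adjusted p = 2.69e-05). The other 8 members did not pass, and the median was -0.51. In sham mice 6 were lower and 1 higher. The start region of Gbp2b is shown because it belongs to the higher group and holds the same motif, far before the start.
Gbp2b, chr3:142594697-142594876, plus strand: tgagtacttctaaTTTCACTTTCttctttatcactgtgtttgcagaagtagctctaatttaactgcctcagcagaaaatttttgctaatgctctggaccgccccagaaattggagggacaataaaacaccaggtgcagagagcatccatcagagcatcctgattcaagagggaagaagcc

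The Ifi200 family encodes interferon-induced sensors of DNA. Ifi202b had 10.23, 10.48 and 9.91 in Balb/c and 2.88, 2.91 and 2.37 in C57BL/6, and was higher by 7.49 ± 0.20 (adjusted p = 1.17e-09, limma). Its relatives stood the other way round. Ifi204, Ifi207 and Ifi213 were lower in Balb/c, at -1.68 ± 0.44, -1.26 ± 0.27 and -3.38 ± 0.76, so that 1 of 6 tested members was higher and 3 were lower. These 3 calls rest on few arrays: Ifi204 lost its call without any 1 of C57BL/6 sham replicate 2, C57BL/6 irradiated replicates 1, 2 and 3, Balb/c sham replicate 1 or Balb/c irradiated replicates 1, 2 and 3 (adjusted p up to 0.132) and with the replicate number as a block (adjusted p = 0.0665), Ifi207 without C57BL/6 irradiated replicate 3 (0.0565) and Ifi213 without Balb/c irradiated replicate 1 (0.0572). The family had 2 calls without C57BL/6 irradiated replicate 3, and 2 without Balb/c irradiated replicate 1. No IRF or STAT factor was called among 10 tested (limma), 4 had an unadjusted p under 0.05, and 1 was called without Balb/c irradiated replicate 1.

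Of 14 tested genes of the MHC class I pathway 5 were lower in Balb/c and none higher (35.7% called), with a median of -0.50, and 1 of the 5 was H2-D1, treated below. Of 11 class II genes 4 were lower and 1 higher (45.5% called), with a median of -1.02. Of all tested genes 8.97% were called. H2-K1, a classical class I heavy chain, had 10.09, 8.32 and 8.99 in Balb/c and 11.80, 11.90 and 12.15 in C57BL/6. The Balb/c arrays were spread over almost 2 log2 units, all below C57BL/6, and the difference was -2.82 ± 0.34 (adjusted p = 0.000369, limma), with -3.05 and -1.85 from its other probe sets. Tap1, a subunit of the peptide transporter, was lower, at -0.96 ± 0.18 and Psmb9, a subunit of the immunoproteasome, at -0.88 ± 0.17. Neither passed with the 3' minus 5' covariate (adjusted p = 0.0545 and 0.128) or without Balb/c irradiated replicate 2 and C57BL/6 irradiated replicate 3 (0.0618 and 0.0617). Psmb8, the next immunoproteasome subunit, was lower, at -0.67 ± 0.17 (adjusted p = 0.0368), lost its call without any 1 of C57BL/6 sham replicates 2 and 3, C57BL/6 irradiated replicates 1, 2 and 3 or Balb/c irradiated replicates 2 and 3 (up to 0.115) and did not pass with the replicate block (0.0543). B2m, the light chain of class I, stood at -0.15 (adjusted p = 0.594). Tapbp, which tethers class I to the transporter, stood at -0.48 (adjusted p = 0.109) and passed with the replicate block (0.0238).

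H2-D1, the other class I heavy chain, shows how far the probe sets decide the sign. Its brightest probe set gave -3.37 ± 0.45, and 3 more were lower, at -1.37, -3.02 and -3.34, while 3 others were higher by 5.68, 6.28 and 5.99, each called. Nothing is read from H2-D1 about the amount of its transcript.

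In class II, H2-Ea, an alpha chain, had 11.06, 9.40 and 10.99 in Balb/c and 6.85, 7.38 and 6.07 in C57BL/6, and a second probe set gave a difference of 10.3. H2-Oa, which tempers peptide loading, had 4.41, 3.18 and 4.0 against 7.61, 7.67 and 7.50 and was lower, at -3.73 ± 0.38 (adjusted p = 0.000103, limma). Its Balb/c values all lay under 5. H2-DMa, which loads peptides, was lower, at -1.02 ± 0.21 (adjusted p = 0.0101), and did not pass with the 3' minus 5' covariate (0.211) or without the 2 arrays (0.0560). The classical chains H2-Aa and H2-Ab1 were lower, at -2.03 ± 0.49 and -2.50 ± 0.60 (adjusted p = 0.0252 and 0.0256). H2-Aa lost the call without any 1 of C57BL/6 irradiated replicates 2 and 3 or Balb/c irradiated replicate 2 (adjusted p up to 0.10). H2-Ab1 lost it without any 1 of C57BL/6 irradiated replicates 2 and 3 or Balb/c irradiated replicates 2 and 3 (up to 0.0984). The class II list had 3 calls without Balb/c irradiated replicate 2 and without either of C57BL/6 irradiated replicates 2 and 3, and the covariate left 2. H2-Eb1, a classical beta chain, stood at -2.39 ± 0.78 (adjusted p = 0.0886) and passed with the replicate block (0.0195), which gave 6 calls in the list. Cd74, the invariant chain, stood at -1.11 (adjusted p = 0.276), and the protease Ctss at 0.05.

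**Figure D2:**
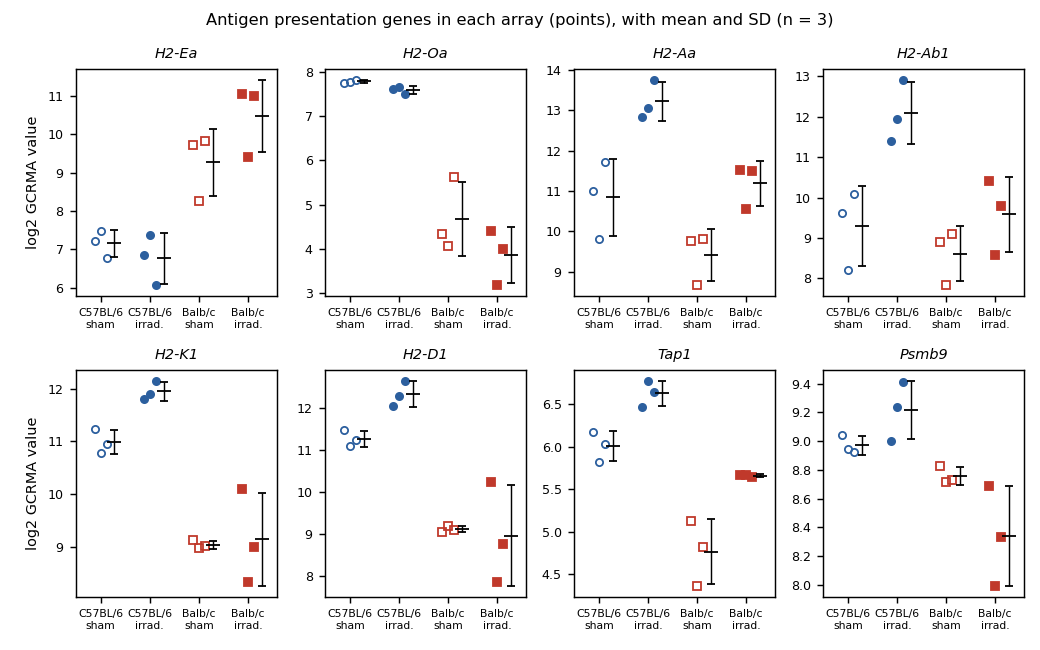
Log2 GCRMA values of 8 antigen presentation genes in each mouse of the 4 groups (points, n = 3) with mean and SD. H2-Ea is higher in both Balb/c groups, the other 7 are lower in irradiated Balb/c than in irradiated C57BL/6, and for H2-D1 other probe sets give the opposite sign.

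Receptors and adaptors of innate sensing differed in both directions. Of 22 tested Toll-like receptors and nucleic acid sensors 3 were higher in Balb/c and 2 lower, beside 4.38% and 4.59% of all tested genes, with a median of 0.07. Tlr1, which pairs with Tlr2 for lipopeptides, had 11.32, 11.37 and 11.21 in Balb/c and 10.42, 10.36 and 10.36 in C57BL/6, higher by 0.92 ± 0.11 (adjusted p = 0.000283, limma). Its arrays were tight within each strain, and the 3 C57BL/6 values lay within 0.1 of each other. Myd88, the adaptor of most Toll-like receptors, was lower, at -0.52 ± 0.09 (adjusted p = 0.00530). Ly96, the partner of Tlr4 for lipopolysaccharide, was lower, at -0.86 ± 0.17 (adjusted p = 0.00846) and did not pass with the 3' minus 5' covariate (0.126) or without the 2 arrays (0.0836). Tlr4 was higher by 0.75 ± 0.15 at its brightest probe set and lower, at -1.82 at a second one, so its direction is uncertain. Tlr6, higher by 0.53 ± 0.13, lost its call without any 1 of C57BL/6 irradiated replicates 2 and 3 or Balb/c irradiated replicates 1, 2 and 3 (adjusted p up to 0.112) and with the replicate block (0.0529).

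Pycard, or ASC, the adaptor that inflammasomes share, had 11.14, 11.04 and 11.00 in Balb/c and 12.10, 12.30 and 12.13 in C57BL/6. It was lower, at -1.12 ± 0.11 (adjusted p = 0.000120, limma). Nod1, a sensor of bacterial peptidoglycan, went the other way with 7.35, 7.13 and 7.27 against 6.04, 6.34 and 5.83, higher by 1.18 ± 0.19 (adjusted p = 0.00300). These were the 2 called of 13 tested inflammasome and NLR genes, beside 8.97% of all tested genes.

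Of 19 tested chemokines 4 were lower in Balb/c and 1 higher, with a median of -0.66, and of 13 inflammatory cytokines 4 were lower and 1 higher, with a median of -0.12. Of all tested genes 4.59% were lower and 4.38% higher. Ccl9, a chemoattractant of myeloid cells, had 8.76, 8.52 and 9.18 in Balb/c and 10.95, 11.01 and 11.00 in C57BL/6, lower, at -2.17 ± 0.16 (adjusted p = 8.80e-06, limma). Ccl6, with 10.83, 10.58 and 10.76 against 11.61, 11.60 and 11.56, was lower, at -0.87 ± 0.12. Ccl3, a ligand of several chemokine receptors, was lower, at -1.21 ± 0.19 (adjusted p = 0.00187), and at 0.0533 with the 3' minus 5' covariate it did not pass. Ccl9, Ccl6 and Ccl3 are neighbours among the tested genes on the RefSeq map. Pf4 was lower, at -0.92 ± 0.19, and lost its call without Balb/c irradiated replicate 2 (adjusted p = 0.0506). Ccl24 was higher by 1.06 ± 0.29 (adjusted p = 0.0492) and lost its call without any 1 of C57BL/6 sham replicates 1 and 3, C57BL/6 irradiated replicates 1 and 2, Balb/c sham replicates 1, 2 and 3 or Balb/c irradiated replicates 1, 2 and 3 (up to 0.150). Ccl5 and Cxcl10, chemokines of the interferon and inflammatory response, stood at -0.66 ± 0.71 and -1.01 ± 0.42 and did not pass (adjusted p = 0.650 and 0.182). With the 3' minus 5' covariate Cxcl10 did pass (adjusted p = 0.0131, limma). Ccl8 stood at 1.09 (adjusted p = 0.164) and passed with the replicate block (0.00316).

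Il1a, an early alarm cytokine, had 11.35, 11.14 and 10.78 in Balb/c and 10.35, 9.69 and 9.91 in C57BL/6, higher by 1.11 ± 0.20 (adjusted p = 0.00500, limma). Il33, an alarmin of the same family that glia make, had 6.82, 5.98 and 7.49 against 8.99, 8.35 and 8.24 and was lower, at -1.76 ± 0.34 (adjusted p = 0.00690). Neither passed with the 3' minus 5' covariate (0.0605 and 0.153), nor did Il1a without the 2 arrays (0.0632). Tnfsf13b, a survival factor of B cells, was lower, at -1.51 ± 0.33 and lost its call without C57BL/6 irradiated replicate 3 (0.0575). Il15 and Il16 were lower, at -1.02 ± 0.25 and -1.01 ± 0.24. Il15 lost its call without any 1 of C57BL/6 irradiated replicates 1, 2 and 3 or Balb/c irradiated replicates 2 and 3 (up to 0.108) and Il16 without any 1 of C57BL/6 irradiated replicates 1 and 2 or Balb/c irradiated replicates 1 and 2 (up to 0.0935). The cytokine list had 3 calls without each of C57BL/6 irradiated replicates 1, 2 and 3 and Balb/c irradiated replicate 2, and the covariate left 0. Il1b at 0.46, Tnf at 0.30 and Il6 at 0.05 ± 0.21 did not pass. Among receptors, Il7r had 11.60, 12.11 and 11.88 against 9.94, 9.72 and 9.88, higher by 2.01 ± 0.16 (adjusted p = 1.82e-05). Ccrl2, an atypical receptor that presents chemerin, was higher by 1.12 ± 0.17 and with Ccr6 made up the 2 called of 7 tested chemokine receptors, beside 8.97% of all tested genes. No NF-kB subunit or inhibitor was called among 14 tested (limma), and 2 had an unadjusted p under 0.05.

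Surface receptors that set the threshold of immune cells differed gene by gene. Of 35 tested paired and lectin receptors 4 were higher in Balb/c and 7 lower, beside 4.38% and 4.59% of all tested genes, with a median of -0.11. Cd84, a SLAM family receptor that binds itself, had 9.81, 8.58 and 8.13 in Balb/c and 11.54, 11.99 and 11.43 in C57BL/6, lower, at -2.81 ± 0.36 (adjusted p = 0.000619, limma). Its neighbours Cd48 and Slamf1 were lower, at -0.97 ± 0.15 and -1.39 ± 0.22, while the next, Slamf6, named after its values were seen, was higher by 1.59 (adjusted p = 0.00331), so the cluster did not move as a block. Lag3, an inhibitory receptor for MHC class II, was lower, at -1.89 ± 0.31, from dim values of 5.14, 5.64 and 5.01 in C57BL/6. Pirb, an inhibitory receptor for MHC class I, had 7.75, 7.12 and 8.03 against 6.07, 6.15 and 6.48 and was higher by 1.40 ± 0.21 (adjusted p = 0.00169). Cd48 and Lag3 did not pass with the 3' minus 5' covariate (0.0515 and 0.0740). Cd244a, the receptor of Cd48, stood at -1.55 (adjusted p = 0.0631) and passed with the replicate block (0.00141).

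Of 10 tested Fc receptors and relatives 4 were lower in Balb/c, beside 4.59% of all tested genes, and 1 of these calls held without every array. Fcrls, an Fc receptor-like scavenger receptor typical of microglia, had 13.35, 13.14 and 13.41 in Balb/c and 14.44, 14.61 and 14.62 in C57BL/6. It was among the brightest genes in both strains and was lower, at -1.25 ± 0.12 (adjusted p = 6.79e-05, limma). The others were Fcgr2b, an inhibitory receptor, and the signalling proteins Ptpn6 and Syk, at -0.55 ± 0.13, -0.72 ± 0.18 and -0.49 ± 0.13. Fcgr2b lost its call without any 1 of C57BL/6 irradiated replicates 2 and 3 or Balb/c irradiated replicates 2 and 3 (adjusted p up to 0.0806) and Ptpn6 without any 1 of C57BL/6 irradiated replicates 1, 2 and 3 or Balb/c irradiated replicates 2 and 3 (up to 0.116). Syk lost it without any 1 of C57BL/6 sham replicate 3, C57BL/6 irradiated replicates 1, 2 and 3, Balb/c sham replicates 1, 2 and 3 or Balb/c irradiated replicates 1 and 2 (up to 0.131) and with the replicate block (0.0709). The list had 2 calls without C57BL/6 irradiated replicate 1 or Balb/c irradiated replicate 3, and 1 without C57BL/6 irradiated replicates 2 or 3 or Balb/c irradiated replicate 2. In the complement list 2 of 11 were lower and none higher, beside 4.59% and 4.38% of all tested genes. These were C5ar1, the receptor of the fragment C5a, with 5.31, 5.72 and 5.38 against 6.85, 7.17 and 6.99, a difference of -1.54 ± 0.21 (adjusted p = 0.000988), and C1qc, a chain of C1q, at -0.66 ± 0.12 (adjusted p = 0.00615, and 0.141 with the 3' minus 5' covariate).

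Of 11 tested integrins 3 were lower in Balb/c and none higher, beside 4.59% and 4.38% of all tested genes, with a median of -0.41. Itga6, a laminin receptor chain, had 11.50, 11.69 and 11.68 in Balb/c and 12.69, 12.95 and 12.67 in C57BL/6 and was lower, at -1.15 ± 0.11 (adjusted p = 6.79e-05, limma). Itgb3, a chain of the vitronectin receptor, was lower, at -2.69 ± 0.44. The third, Itga9, was lower, at -1.07 ± 0.18 at its brightest probe set and higher by 2.99 at another, so its direction is uncertain. Among purinergic genes P2rx7, the ATP-gated channel that triggers release of interleukin 1, had 7.77, 6.54 and 6.90 against 9.10, 9.81 and 9.29 and was lower, at -2.33 ± 0.31 (adjusted p = 0.000710). Ada, which deaminates adenosine, had 6.98, 5.99 and 5.41 against 2.64, 3.97 and 2.32 and was higher by 3.15 ± 0.49 (adjusted p = 0.00207). P2ry10, a lysophosphatidylserine receptor, passed the filter on low values through irradiated C57BL/6 alone, so it had to differ. It was lower, at -1.82 ± 0.42 and lost its call without C57BL/6 irradiated replicate 3 or Balb/c irradiated replicate 2 (adjusted p up to 0.0806). No gene of the apoptotic cell uptake list passed among 19 tested (limma), with 2 at an unadjusted p under 0.05, and 1 was called without C57BL/6 sham replicate 3 and without Balb/c irradiated replicate 1.

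Among metabolic and redox genes the share called was 33.3% of prostaglandin genes, 28.6% of NADPH oxidase genes, 17.6% of glycolysis genes and 5.56% of cholesterol synthesis genes, beside 8.97% of all tested genes. Hpgd, which inactivates prostaglandins, had 10.52, 9.94 and 10.25 in Balb/c and 13.41, 13.35 and 13.33 in C57BL/6. All 3 C57BL/6 values lay within 0.1 of each other and about 3 log2 units above Balb/c, a difference of -3.13 ± 0.15 (adjusted p = 2.03e-07, limma). Ptger3, a receptor of prostaglandin E2, was dim, with irradiated means of 3.64 in Balb/c and 5.81 in C57BL/6. It was lower, at -2.17 ± 0.36, with -0.21 ± 0.36 in sham mice, where it did not pass. The difference of the strain differences of Ptger3 did not pass either (adjusted p = 0.391, limma). Hpgds, which makes prostaglandin D2, was lower, at -0.52 ± 0.13 and lost its call without any 1 of C57BL/6 irradiated replicate 2 or Balb/c irradiated replicates 2 and 3 (adjusted p up to 0.111) and with the replicate block (0.0512). These were the 3 called of 9 tested prostaglandin genes, all lower.

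Slc2a5, the fructose transporter and a microglial marker, had 6.73, 6.98 and 6.83 in Balb/c and 10.02, 10.03 and 9.64 in C57BL/6 and was lower, at -3.05 ± 0.13 (adjusted p = 9.42e-08, limma). Of 17 tested glycolysis genes 3 were lower and none higher. Pdk1, which shuts pyruvate out of the citric acid cycle, was lower, at -1.69 ± 0.28, Hk3, a hexokinase of myeloid cells, at -0.86 ± 0.13, and Hk2, another hexokinase, at -0.49 ± 0.11, the last losing its call without C57BL/6 irradiated replicate 2 and without Balb/c irradiated replicate 2 (adjusted p up to 0.0730). Nnt, with 12.59, 12.69 and 12.55 against 11.18, 10.86 and 11.04, was still bright in C57BL/6. Gclc, the rate-limiting enzyme of glutathione synthesis, was lower, at -0.72 ± 0.14 and did not pass with the 3' minus 5' covariate (0.0581). Nnt and Gclc were the 2 called of 31 antioxidant and glutathione genes, a share of 6.45% beside 8.97% of all genes. Ncf4, a cytosolic subunit of the phagocyte NADPH oxidase, was higher by 0.75 ± 0.14 (adjusted p = 0.00572), and Duoxa1, a maturation factor of dual oxidases, by 1.27 ± 0.18 with every irradiated array under 4. Duoxa1 passed the filter through 1 group alone, and these were the 2 called of 7 in that list. Hsd17b7, an enzyme of cholesterol synthesis, was higher by 1.02 ± 0.19 as the 1 called of 18, and it did not pass with the covariate (0.133). That list had 2 calls without C57BL/6 sham replicate 1 and 2 with the replicate block, which added Ebp (-0.60, adjusted p = 0.0457 with the block).

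Transcription factors of myeloid cells were split, with 2 of 25 higher and 3 lower, beside 4.38% and 4.59% of all tested genes. Ets1 had 8.45, 8.25 and 8.65 in Balb/c and 10.09, 10.10 and 9.87 in C57BL/6 and was lower, at -1.57 ± 0.15 (adjusted p = 7.96e-05, limma). Tfe3, which drives lysosomal and autophagy genes, had 9.31, 8.81 and 9.02 against 7.57, 7.77 and 7.30 and was higher by 1.5 ± 0.20 (adjusted p = 0.000794). Sall3, a zinc finger factor, was lower, at -2.56 ± 0.44, with Balb/c arrays spread from 5.37 to 7.43. Tfeb and Runx1, at 0.49 ± 0.13 and -0.72 ± 0.20, were the others called. Tfeb lost its call without any 1 of C57BL/6 sham replicates 2 and 3, C57BL/6 irradiated replicates 1, 2 and 3, Balb/c sham replicate 3 or Balb/c irradiated replicates 1 and 2 (adjusted p up to 0.133). Runx1 lost it without any 1 of C57BL/6 sham replicate 1, C57BL/6 irradiated replicates 1 and 3, Balb/c sham replicates 2 and 3 or Balb/c irradiated replicates 1, 2 and 3 (up to 0.150) and with the replicate block (0.0663). The list had 3 calls without each of C57BL/6 irradiated replicates 1 and 3, Balb/c sham replicate 3 and Balb/c irradiated replicate 2. No gene of TGF-beta signalling was called among 19 tested (limma), and 4 had an unadjusted p under 0.05.

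Of 22 tested heat shock genes and chaperones 2 were called (9.09%), of 22 genes of the unfolded protein response 1 (4.55%) and of 11 BCL2 family genes 3 (27.3%), beside 8.97% of all tested genes. None of 27 tested immediate early genes was called (limma), with 5 at an unadjusted p under 0.05, and the median was 0.05. This list had 2 calls without C57BL/6 irradiated replicate 1 and 1 without Balb/c irradiated replicate 1 or 2. Its member Nr4a2, at -0.83 in the main fit, passed with the 3' minus 5' covariate (adjusted p = 0.0381, limma). Hspe1, the mitochondrial co-chaperonin, had 11.70, 11.59 and 11.50 in Balb/c and 10.96, 10.95 and 11.05 in C57BL/6 and was higher by 0.61 ± 0.09 (adjusted p = 0.00186), and the chaperone Dnajb4 was higher by 0.54 ± 0.12 (adjusted p = 0.0167). Without C57BL/6 irradiated replicate 2 or 3 or Balb/c irradiated replicate 2 the list had 1 call and Dnajb4 did not pass (up to 0.059), nor did it with the 3' minus 5' covariate (0.294). Herpud1, of the endoplasmic reticulum stress response, was lower, at -0.65 ± 0.13 and Bcl2l11, or Bim, which promotes apoptosis, was higher by 0.72 ± 0.14. Neither passed with the 3' minus 5' covariate (0.0890 and 0.155) or without the 2 arrays (0.0947 and 0.0808). The unfolded protein response list had 2 calls without Balb/c irradiated replicate 3. Bcl2, which protects from apoptosis, was higher by 0.78 ± 0.17 (adjusted p = 0.0153), and Bid, which promotes it, was lower, at -1.05 ± 0.24 (adjusted p = 0.0198). Both lost their calls without C57BL/6 irradiated replicate 2 or Balb/c irradiated replicate 2 (up to 0.0559 and 0.0639), where the family had 1 call, and Bid also without C57BL/6 irradiated replicate 1 or Balb/c irradiated replicate 3. The covariate left 0 calls in the family.

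Targets of p53 are the genes that irradiation is best known to induce. Of 21 tested 1 was called (4.76%, beside 8.97% of all tested genes), Tap1, which belongs to the class I list too, and the median was 0.12. Cdkn1a, or p21, which arrests the cell cycle downstream of p53, had 12.41, 12.58 and 12.72 in Balb/c and 12.34, 12.19 and 12.05 in C57BL/6. Its Balb/c values were all higher, but the difference of 0.38 ± 0.21 did not pass (adjusted p = 0.315, limma), against 1.61 ± 0.21 in sham mice (adjusted p = 0.000486). The difference of the strain differences did not pass for Cdkn1a (adjusted p = 0.279, limma), so a change of its strain difference with irradiation is not shown. The p53 list had 2 calls without C57BL/6 sham replicate 2, C57BL/6 irradiated replicate 2 or Balb/c irradiated replicate 1, 2 with the replicate block, which added Zmat3 (0.64, adjusted p = 0.0168 with the block), and 0 with the 3' minus 5' covariate. Among DNA repair genes Chek2, a checkpoint kinase, was higher by 1.37 ± 0.24, Xrcc6, or Ku70, was lower, at -0.67 ± 0.13, and Ercc1, an excision repair nuclease subunit, was lower, at -1.03 ± 0.23, 3 of 27 tested, beside 8.97% of all tested genes. Ercc1 lost its call without any 1 of C57BL/6 irradiated replicates 1 and 3 or Balb/c irradiated replicates 1 and 2 (adjusted p up to 0.0708). None of the 3 passed with the covariate (0.0545, 0.0964 and 0.0840) or without the 2 arrays (0.0524, 0.0817 and 0.154).

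Of 20 tested cell cycle genes 5 were lower in irradiated Balb/c (25.0%, where 4.59% of all genes were lower), none was higher and 15 did not pass. The median was -0.49, while in sham mice 9 were higher and 1 lower, with a median of 0.75. Of this list the difference of the strain differences was called for Mcm5 alone, so a change with irradiation is not shown for the other members. Mcm6, a subunit of the replicative helicase, had 8.63, 8.25 and 7.92 in Balb/c and 9.52, 9.74 and 9.74 in C57BL/6, lower, at -1.40 ± 0.22 (adjusted p = 0.00234, limma). Mcm3, another subunit, was lower, at -0.87 ± 0.16 (adjusted p = 0.00580). In sham mice Mcm6 and Mcm3 stood at -0.62 and -0.73, with Mcm3 called. The subunit Mcm4 stood at 0.25 in irradiated mice and did not pass. Mcm5, Mcm7 and the mitotic kinase Cdk1 were lower, at -0.62 ± 0.14, -1.11 ± 0.29 and -0.93 ± 0.23. Mcm5 lost its call without C57BL/6 irradiated replicate 3 or Balb/c irradiated replicate 2 (adjusted p up to 0.0811) and Cdk1 without any 1 of C57BL/6 irradiated replicates 2 and 3 or Balb/c irradiated replicates 2 and 3 (up to 0.111). Mcm7 lost it without any 1 of C57BL/6 irradiated replicates 1, 2 and 3, Balb/c sham replicates 1 and 3 or Balb/c irradiated replicates 2 and 3 (up to 0.121) and with the replicate block (0.0513). The list had 2 calls without C57BL/6 irradiated replicate 3 or Balb/c irradiated replicate 2, 3 without C57BL/6 irradiated replicate 2 or Balb/c irradiated replicate 3, and 0 with the 3' minus 5' covariate. Mki67, the proliferation marker, had 8.49, 8.69 and 7.88 against 8.81, 9.26 and 9.01, a difference of -0.68 ± 0.26 that did not pass (adjusted p = 0.152). Fewer dividing cells and less of these RNAs per cell cannot be told apart in bulk RNA.

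Of 28 tested identity genes of microglia 3 were lower in Balb/c (10.7%, beside 8.97% of all genes called), and the median was -0.01. P2ry12, a purine receptor of resting microglia, had 14.08, 13.95 and 14.16 in Balb/c and 13.79, 14.20 and 13.89 in C57BL/6, a difference of 0.10 ± 0.14 (adjusted p = 0.724, limma), and Tmem119 and Cx3cr1 differed by 0.08 ± 0.10 and 0.14 ± 0.11. Itgam, which encodes the CD11b used for sorting, stood at -0.41 ± 0.30 (adjusted p = 0.478). The 3 lower genes were Slc2a5, Fcrls and Bin1, an endocytic adaptor at -0.72 ± 0.19 that lost its call without any 1 of C57BL/6 sham replicate 2, C57BL/6 irradiated replicates 2 and 3, Balb/c sham replicate 2 or Balb/c irradiated replicates 2 and 3 (adjusted p up to 0.125). Genes of activated microglia had 4 of 24 lower and none higher, beside 4.59% and 4.38% of all tested genes, and a median of -0.37. Cst7, an inhibitor of lysosomal proteases, had 8.59, 8.22 and 9.21 against 10.39, 10.45 and 10.22 and was lower, at -1.68 ± 0.27 (adjusted p = 0.00278). Cd52, a small surface glycoprotein, was lower, at -1.03 ± 0.18 and Cd9, a tetraspanin, at -0.80 ± 0.13, and the last was Ccl6, given above. Cst7, Cd52 and Cd9 did not pass with the 3' minus 5' covariate (0.0691, 0.0840 and 0.0589). Apoe stood at -0.44 ± 0.29 and did not pass.

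Markers of other cells that the sort could hold were followed over whole lists. Of 13 T and NK cell markers on the array 12 lay under 5 in all 6 irradiated arrays, among them Cd3e and Cd4, as did 5 of 5 erythroid markers and 6 of 8 B cell markers, among them Cd79a and Ms4a1. Gzma, a protease of cytotoxic lymphocytes and the 1 tested T and NK cell marker, averaged 5.38 in Balb/c and 8.01 in C57BL/6, a difference of -2.63 ± 1.09 that did not pass (adjusted p = 0.179, limma), with -3.61 in sham mice, and it passed without Balb/c irradiated replicate 1. Cd79b, a chain of the B cell receptor complex, had 4.81, 4.98 and 5.31 in Balb/c and 7.10, 7.83 and 7.0 in C57BL/6 and was lower, at -2.28 ± 0.23 (adjusted p = 9.63e-05, limma), with -2.25 in sham mice. The other tested B cell marker, Ighm, was bright in both strains, with means of 9.33 in Balb/c and 9.67 in C57BL/6. Its difference of -0.34 ± 0.33 did not pass (adjusted p = 0.614, limma). Border-associated macrophage markers, whose array means ran from 8.58 to 8.98 in Balb/c and from 9.12 to 9.45 in C57BL/6, had a median of -0.72 with 1 of 13 called higher and 1 lower, beside 4.38% and 4.59% of all tested genes. The calls were Ccl24, higher, and Pf4, lower, and every tested member but Ccl24 had a negative difference. Cd163 stood at -1.28 and did not pass (adjusted p = 0.0550, limma). The count of calls ran from 0 without Balb/c irradiated replicate 2 to 4 without C57BL/6 sham replicate 3, and neither call held without every array. Clec10a, a lectin of this list, stood at -1.16 (adjusted p = 0.0535, limma) and passed with the replicate block (0.0305). Monocyte markers ran from 7.06 to 7.74 against 7.62 to 8.33, with 1 of 10 called lower, S100a4, which lost its call without any 1 of C57BL/6 irradiated replicates 1 and 2, Balb/c sham replicates 1, 2 and 3 or Balb/c irradiated replicates 1, 2 and 3 (adjusted p up to 0.133) and with the replicate block (0.0630). Monocytes and border-associated macrophages express MHC class II and activation genes as well, and their part in the differences of those genes was not tested. Astrocyte markers ran from 9.91 to 10.6 against 9.72 to 10.2, and none of 13 was called (limma), with 2 at an unadjusted p under 0.05, and 1 was called without Balb/c irradiated replicate 2. Gfap, the astrocyte filament, stood at 1.2 (adjusted p = 0.0811) and passed with the replicate block (0.0464). Of 9 tested endothelial and pericyte markers 8 had positive differences and 2 were called higher, Rgs5 by 1.44 ± 0.24 and Pdgfrb by 0.96 ± 0.18, both pericyte genes. Over all tested genes 4.38% were called higher and the median signed difference was 0.02. Array means of the endothelial and pericyte list ran from 7.93 to 8.34 in Balb/c and from 7.38 to 8.12 in C57BL/6. The endothelial markers Cldn5, Slco1a4 and Flt1 were bright, with means of 10.3, 11.2 and 8.93 in Balb/c and 9.94, 11.0 and 8.65 in C57BL/6, and did not pass, while Pecam1 and Cdh5, 2 of 11 on the array, lay under 5 in all 6 arrays. Neither Rgs5 nor Pdgfrb passed with the 3' minus 5' covariate (0.0591 and 0.0725), nor did Pdgfrb without the 2 arrays (0.0612).

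The other marker lists had no call (limma). None of 4 tested neutrophil, 10 oligodendrocyte, 8 neuron and 5 choroid plexus markers had an unadjusted p under 0.05. Sox2, the 1 tested marker of the list of immature neurons and progenitors, did. Its difference was 0.60 ± 0.25 (adjusted p = 0.182, limma). Of 8 markers of that list on the array 7 lay under 5 in all 6 irradiated arrays, among them Dcx and Neurod1. Array means of neutrophil markers ran from 3.66 to 5.14 in Balb/c and from 3.43 to 5.45 in C57BL/6, with Mpo and Elane under 5 in every array and S100a8 bright at 10.2 and 9.54. Those of oligodendrocyte markers ran from 8.05 to 8.55 against 8.03 to 8.61 and those of neuron markers from 5 to 5.61 against 5.06 to 5.6. Such means hide bright members. The oligodendrocyte markers Mbp and Mobp averaged 15.1 and 13.3 in Balb/c and 15.3 and 13.9 in C57BL/6, while Cspg4 averaged 4.80 and 4.57. The astrocyte markers Gja1 and Clu averaged 14.2 and 13.7 against 13.8 and 13.7. The microglial marker P2ry12 averaged 14.06 and 13.96. The share of RNA from other cells in the arrays was not tested. Without C57BL/6 irradiated replicate 1 an oligodendrocyte marker was called, and without Balb/c irradiated replicate 3 a neuron marker. Choroid plexus markers were uneven between mice, from 4.20 to 6.88 against 3.16 to 8.79, and Ttr, which they secrete, had 15.96, 14.69 and 15.96 in Balb/c and 15.80, 8.04 and 16.02 in C57BL/6, with C57BL/6 irradiated replicate 2 far below the rest.

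**Figure D3:**
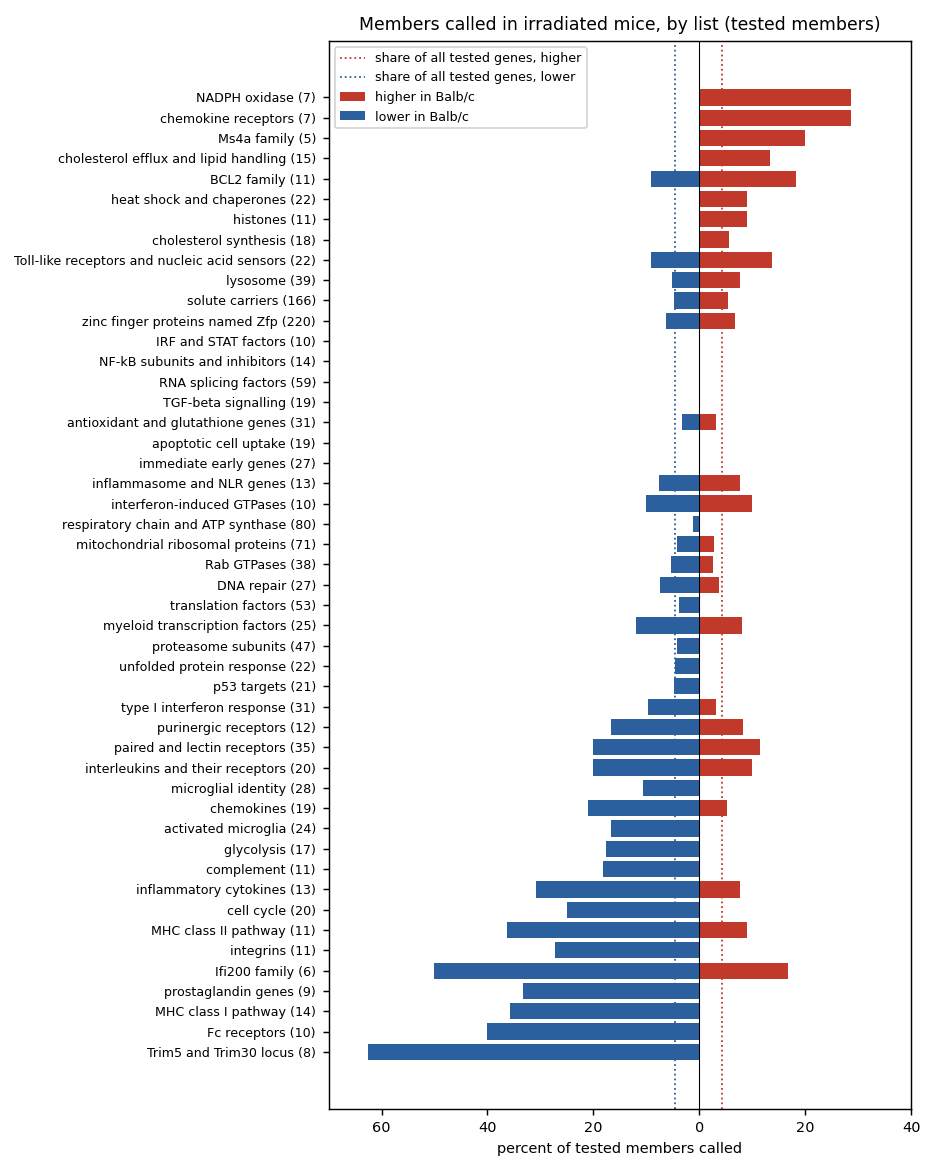
Percent of the tested members of each gene list (number in parentheses) called higher (right, red) or lower (left, blue) in irradiated Balb/c, with dotted lines at the shares over all tested genes, 4.38% and 4.59%. The list of the Trim5 and Trim30 locus, with Trim21 and Trim68 among its members, reaches furthest to the left, with 62.5% of its 8 tested genes lower.

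Large gene families differed in the share called, beside 8.97% of all tested genes. Of 166 tested solute carriers 9 were higher and 8 lower (10.2% called), with Slco4a1, an organic anion transporter, at 1.33 ± 0.14 and Slc35a5, a nucleotide sugar transporter relative, at -1.22 ± 0.14. That family had 11 calls without C57BL/6 irradiated replicate 2. Of 220 genes named Zfp, which encode zinc finger proteins, 15 were higher and 14 lower (13.2% called), with Zfp868 at 1.88 ± 0.29 and Zfp874a at -3.70 ± 0.41. These had 18 calls without C57BL/6 irradiated replicate 2 and 17 without Balb/c irradiated replicate 2. Of 33 Trim proteins 7 were lower and none higher, 5 of them in the locus above. Of 50 cytosolic ribosomal proteins 4 were lower and none higher, with Rps6 at -1.89 ± 0.21, and 2 were called without C57BL/6 irradiated replicate 3. Of 71 mitochondrial ribosomal proteins 2 were higher and 3 lower, and 3 were called without C57BL/6 irradiated replicate 2. Of 47 proteasome subunits 2 were lower, the immunoproteasome genes Psmb8 and Psmb9, with the limits given above. Of 53 translation factors 2 were lower, Eif3a at -0.66 ± 0.14, a call lost without C57BL/6 irradiated replicate 1 (adjusted p = 0.0553), and Eif2a at -0.53 ± 0.15, a call that held without Balb/c sham replicate 2 alone (up to 0.153). Of 80 respiratory chain genes 1 was lower, Atp5j at -0.52 ± 0.14, a call that held without C57BL/6 sham replicate 1, C57BL/6 irradiated replicate 2 or Balb/c irradiated replicate 3 (otherwise up to 0.133). Without Balb/c irradiated replicate 3 that list had 3 calls. Of 38 Rab GTPases 1 was higher and 2 were lower, among them Rab32, which works in lysosome-related organelles, with 9.53, 9.26 and 9.11 in Balb/c and 11.03, 11.31 and 11.02 in C57BL/6, a difference of -1.82 ± 0.16 (adjusted p = 3.96e-05, limma). None of 59 RNA splicing factors was called (limma), and 5 had an unadjusted p under 0.05.

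Most strain differences of irradiated mice were present in sham mice too. Of the 818 called genes 515 were called in the same direction in sham mice, which is 63.0% of the irradiated calls and 54.0% of the 954 sham calls (10.5% of genes tested, with 5.22% higher in Balb/c and 5.24% lower). The sign was the same for 786 (96.1%), and over all 9120 genes the differences of the sham and irradiated strains correlated at r = 0.752, across genes, which are not independent replicates. Opposite calls were found for Cdk1 and Mcm5, lower in irradiated Balb/c and higher in sham Balb/c. A further 301 genes, 159 higher and 142 lower, were called in irradiated mice and not in sham mice. For 1 of them the difference between the strain differences was itself called. This was D630023F18Rik, which passed the filter through irradiated C57BL/6 alone. For 110 of them that difference had an unadjusted p under 0.05, so a call in 1 setting alone mostly does not show that the strains differed by a different amount there.

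**Figure D4:**
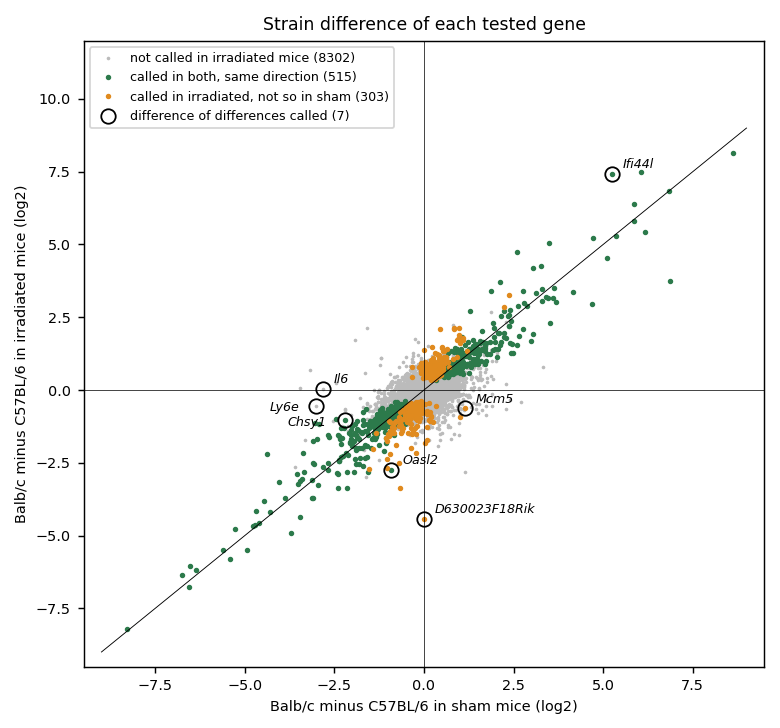
Balb/c minus C57BL/6 difference (log2) of each of the 9120 tested genes in sham mice (horizontal) and irradiated mice (vertical), with equality as the diagonal line. Called genes follow the diagonal, and the 7 genes whose strain differences differed between sham and irradiated mice are ringed.

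The difference of the strain differences was called for 7 genes (0.0768% of 9120; limma, Benjamini-Hochberg), and 735 had an unadjusted p under 0.05 (8.06%). For Il6, the cytokine, irradiated values were 9.47, 9.49 and 9.49 in Balb/c and 9.40, 9.67 and 9.22 in C57BL/6, and sham values were 6.37, 6.74 and 6.44 and 8.87, 9.38 and 9.81. The irradiated strains overlapped and the sham strains did not, with Balb/c sham mice all lower, and the strain difference was -2.83 in sham and 0.05 in irradiated mice (difference 2.88 ± 0.30, adjusted p = 0.00609). Without the 2 arrays this missed the threshold, at 0.0565. Ifi44l was near the bottom of the scale in C57BL/6 in both settings and brighter in irradiated than in sham Balb/c mice, 9.78 ± 0.08 against 7.54 ± 0.26 (mean ± SD, n = 3), so that its strain difference was larger after irradiation by 2.19 ± 0.20 (adjusted p = 0.00365). Mcm5 changed the sign of its strain difference, from 1.15 in sham to -0.62 in irradiated mice (-1.77 ± 0.20, adjusted p = 0.0101), and lost this call without Balb/c sham replicate 1 (0.0577), with the 3' minus 5' covariate (0.0630) and without the 2 arrays (0.0565).

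Ly6e, a surface protein that interferon induces, differed at -3.0 in sham mice and -0.53 in irradiated mice (2.47 ± 0.31, adjusted p = 0.0165, limma). D630023F18Rik was at the bottom of the scale in all groups except irradiated C57BL/6, with 5.41, 7.66 and 6.99 there, and passed the filter through that group alone. Oasl2 was dim everywhere, and its strain difference was larger after irradiation at -1.82 ± 0.24 (adjusted p = 0.0203). Chsy1, which builds chondroitin chains, differed at -2.19 in sham mice and -1.04 in irradiated mice (adjusted p = 0.0498). These 4 calls were lost without each of 7, 10, 9 and 11 of the 12 arrays, with an adjusted p that reached 0.0697 (Ly6e, without Balb/c sham replicate 2), 0.0925 (D630023F18Rik), 0.0925 (Oasl2) and 0.185 (Chsy1), the last 3 without Balb/c sham replicate 1. The arrays that ended the call of Ly6e were C57BL/6 sham replicates 1 and 2, C57BL/6 irradiated replicates 2 and 3, Balb/c sham replicates 1 and 2 and Balb/c irradiated replicate 3. The call of D630023F18Rik held without C57BL/6 irradiated replicates 1 and 2, that of Oasl2 without C57BL/6 sham replicates 2 and 3 or C57BL/6 irradiated replicate 2 and that of Chsy1 without Balb/c sham replicate 3. With the replicate block Oasl2 and Chsy1 did not pass (0.0679 and 0.140). The count was 2 without Balb/c sham replicate 1, 3 without C57BL/6 sham replicate 1, C57BL/6 irradiated replicate 3 or Balb/c sham replicate 2, and 4 without C57BL/6 sham replicate 2 or Balb/c irradiated replicate 3. For the proliferation marker Mki67 the strain difference was 1.61 in sham and -0.68 in irradiated mice, and the difference of -2.28 ± 0.37 did not pass (adjusted p = 0.0822).

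**Figure D5:**
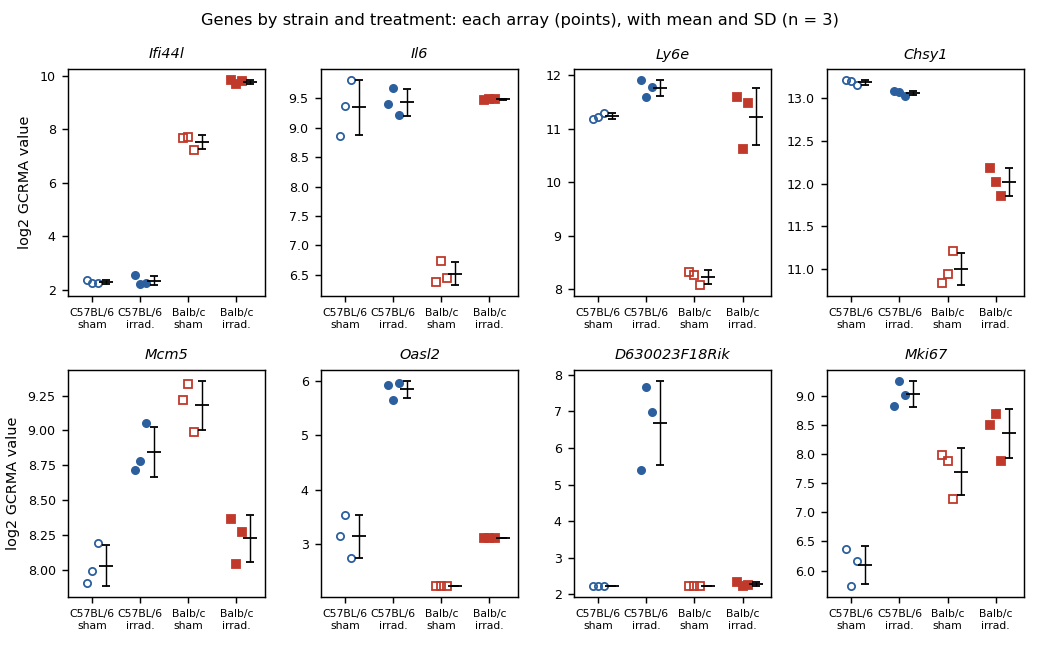
Log2 GCRMA values of the 7 genes whose strain difference differed between sham and irradiated mice, and of Mki67, in each mouse (points, n = 3 per group) with mean and SD. For Il6 only sham Balb/c is low, and for D630023F18Rik only irradiated C57BL/6 lies above the bottom of the scale.

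Further probe sets and map position describe the called genes. The further probe sets were put to the same strain contrast in the same mice, so their signs and calls are not separate support for it. Of the 818 genes 290 had other kept probe sets, 408 in all, of which 327 (80.1%) had the same sign, 166 were called in the same direction and 20 in the opposite direction. The opposite calls fell in 18 genes, among them H2-D1, Tlr4, Itga9 and Pdxdc1 above, and Il6st, the shared receptor of the interleukin 6 family, at -1.69 and 1.82. The other 528 called genes rest on 1 kept probe set. Called genes lay next to each other on the RefSeq map more often than other genes: 30% of them had a called gene as the nearest tested neighbour on either side, against 15.3% of genes not called. The longest runs held 4 called neighbours. In the runs of Cd48, Slamf1, Cd84 and Slamf6 and of Pnp, Rnase4, Ang and Rnase6 the signs were mixed, while Cd52, Sh3bgrl3, Cep85 and Zfp593 were all lower in Balb/c and Rccd1, Unc45a, Hddc3 and Man2a2 all higher. In these runs the calls of Rccd1, Man2a2, Pnp and Rnase4 were lost without 2, 3, 1 and 6 of the irradiated arrays, at adjusted p up to 0.0964, 0.0655, 0.0502 and 0.076 (limma).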

How the data were processed

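The deposited series table holds log2 values, made by the authors with GCRMA per the submitters' processing notes; the version and the annotation are not given in the sources used here. All 12 arrays have the same sorted values, to within 3.4e-04. RNA had passed 2 rounds of amplification per the labels' protocols. Of 45101 probe sets 34945 had 1 symbol, 932 several and 9160 none, and 34741 were updated through Entrez ID. Differences were computed with limma 3.58.1 in R 4.3.3 from 4 group means over all 12 arrays (8 residual degrees of freedom), with p-values adjusted over 9120 genes, and the code was tested on simulated data. Members, lists and tests were chosen with earlier results of these data known. Named genes are the 15 largest in each direction among those called with each array left out in turn and whose irradiated strains did not overlap. Also named are up to 5 called members per list by smallest p, genes whose strain difference differed between settings, and fixed markers. Other members named in the text, such as Ifit1, Bcl2, Gzma or Tnf, were chosen after their values were seen. Deviations of same-numbered irradiated Balb/c and C57BL/6 arrays from their group means correlated at 0.22, 0.45 and 0.32, other pairs at -0.39 to 0.11. Deviations within a group are tied to each other, so these correlations are not independent. The sample titles do not say whether the replicate number marks a pair or a batch. The main fit left it out, and it entered as a block in an alternative. Alternatives were filter, scaling, floor, probe set choice, covariates, array weights, the block, and each array left out.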

Additional observations from a re-analysis of the deposited data

Results flagged for a closer look

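In 7 genes the strain difference of irradiated mice differed from that of sham mice in a test of the difference itself (limma interaction contrast, Benjamini-Hochberg over 9120 genes). The value is the strain difference after irradiation minus that in sham mice, on the log2 scale. Ifi44l had 2.19 ± 0.20 and Il6 had 2.88 ± 0.30, and both held without each of the 12 arrays, at adjusted p up to 0.0240 and 0.0364. Ly6e had 2.47 ± 0.31 and Chsy1 had 1.15 ± 0.17. Mcm5 had -1.77 ± 0.20, with opposite signs of the strain difference in the 2 settings. Oasl2 had -1.82 ± 0.24 and D630023F18Rik had -4.42 ± 0.59, and both passed the filter on low values through the irradiated C57BL/6 group alone, so they had to differ there.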

How the results depend on the processing

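The count of 818 called genes moved by over 1.5 times with the 3' minus 5' covariate (336), the 18S covariate (490), the 6 irradiated arrays alone (533), without Balb/c irradiated replicate 2 and C57BL/6 irradiated replicate 3 (450), at an adjusted p under 0.01 (426), with at least 2-fold (408) and over all probe sets, where probe sets were counted in place of genes (1456). Leaving out 1 array gave 576 without C57BL/6 irradiated replicate 2 to 847 without C57BL/6 sham replicate 1. The other settings gave from 585 (no filter on low values) to 903 (eBayes with trend and robust). The 7 differences of the strain differences became 2 without the filter, 3 with the 3' minus 5' covariate, 2 without the 2 arrays and 2 at an adjusted p under 0.01, and leaving out 1 array gave 2 to 8. With the replicate number as a block 793 genes were called, 715 of them among the 818, and the difference of the strain differences was called for 7. The block ended the call of 12 of the 158 called named genes and added 1 among the 37 others, Gfap, while further list members such as Tapbp and H2-Eb1 gained a call too.

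Of the 195 named genes 158 were called, and 78 of these were called under all 26 alternatives. The covariate for 3' minus 5' ended 71 calls, leaving out that pair of arrays 50, the 18S covariate 45 and the 6 arrays alone 44. No filter on low values ended 33, with more genes tested. Averaging all probe sets of a gene turned 4 directions: H2-D1 to 0.74, Il6st to 0.034, Itga9 to 0.69 and Tlr4 to -0.62. Apart from these, the causes of lost calls were not tested. Of 1638 alternative medians over 63 gene lists 94 moved. With 3 arrays per group the number of arrays limits the precision, and a value near 2.23 is a floor of the background correction.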

Other observations

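Beside the genes above, 82 more differed by at least 4-fold between the irradiated strains and were called without each of the 12 arrays, 32 higher in Balb/c and 50 lower, and 74 of them were called in the same direction in sham mice. The genes named here were chosen after their values were seen. Pik3ap1, an adaptor that links immune receptors to PI3 kinase, was bright in both strains, with 12.54, 12.69 and 12.28 in Balb/c and 8.79, 9.17 and 9.06 in C57BL/6, a difference of 3.49 ± 0.15 (adjusted p = 7.48e-08, limma). Procr, the endothelial protein C receptor, had 11.48, 11.55 and 11.21 against 8.60, 8.39 and 7.28 and was higher by 3.33 ± 0.31. Colec12, a scavenger receptor with a collectin domain, was higher by 3.17 ± 0.32, and the matrix protein Comp by 2.71 ± 0.29. Among enzymes, Ppcs, of coenzyme A synthesis, was higher by 3.19 ± 0.16 and Alad, of haem synthesis, by 2.2 ± 0.20. Wdfy1, an endosomal adaptor for Tlr3 and Tlr4, was higher by 2.57 ± 0.11.

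Lower in Balb/c were Phgdh, the first enzyme of serine synthesis, with 8.65, 8.29 and 9.08 against 11.50, 11.77 and 11.43 (-2.89 ± 0.20, adjusted p = 6.29e-06, limma), and Padi2, which turns arginine in proteins to citrulline, at -2.82 ± 0.12. Abcc1, an exporter of leukotriene C4 and glutathione conjugates, stood at -2.74 ± 0.27, Cyp2r1, a vitamin D 25-hydroxylase, at -4.20 ± 0.16, and Capg, an actin-capping protein of macrophages, at -2.29 ± 0.18. Clcf1, a cytokine of the interleukin 6 family, had 4.09, 4.36 and 4.77 against 8.71, 7.85 and 8.08, a difference of -3.80 ± 0.29. Epsti1, an interferon-induced gene, was at -3.25 ± 0.25, with -3.52 in sham mice.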
